A study of Mus musculus with 30 samples.

Results

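Tumors from obese mice that were placed on chronic calorie restriction (DIO-CCR, 6 tumors) were compared with tumors from mice that stayed obese (DIO-HFD, 6 tumors), over all genes with a named probe set, 19505 in all. The 12 tumors were chosen by the group in their labels and are part of a series of 30. Every tumor was grown from E0771 cells, a single mouse mammary carcinoma line used as a model of triple-negative breast cancer, injected into the 4th mammary fat pad of female C57BL/6NCrl mice after 25 weeks of the diet protocol. Mice of both groups had become obese on a 60% high-fat diet and had a sham operation. DIO-CCR mice then lost weight on a restricted ration of a purified diet, and DIO-HFD mice kept the high-fat diet, so that restriction, weight loss and diet composition cannot be told apart. The authors also reported smaller tumors in DIO-CCR than in DIO-HFD mice, so tumor size cannot be told apart from these either. Tumors of mice under intermittent restriction (DIO-ICR, 6 tumors, also sham-operated after obesity) and of never-obese, sham-operated mice on the control diet (CON-LFD, 6 tumors) serve below as further points of comparison. The other 6 tumors of the series came from obese mice that had a sleeve gastrectomy (DIO-VSG). They entered the fit and the median array used below, and some had high levels of genes typical of other tissues, with lymph node genes 5.76 above the median array in DIO-VSG 1 and skeletal muscle genes 6.69 above it in DIO-VSG 4. Levels are log2 values from 1 array per tumor, so a difference of 1 is a doubling.

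Calorie restriction lowers insulin, growth factor and adipokine signals and mobilizes fat, and obesity is known to weaken the killing of tumor cells by lymphocytes. Natural killer cells recognize stressed or transformed cells through activating receptors and kill them with granzymes and perforin. ATF4 is a transcription factor that raises the genes of amino acid synthesis, amino acid import and tRNA charging when amino acids run short or when the integrated stress response is on.

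Higher in DIO-CCR tumors were the fat cell hormone resistin, 3 major urinary proteins, Cyp2e1, the natural killer cell receptors Klrk1, Ncr1 and Klrb1b, and granzyme B. Lower were the amino acid genes Slc1a4 and Aldh18a1, Igfbp3, the adenosine-producing enzyme CD73 (Nt5e), Rgs16, Banp and Six4. By limma with Benjamini-Hochberg adjustment, 69 genes (0.354% of those tested) had an adjusted p under 0.05, the level called passing below, of which 23 were higher (0.118%) and 46 lower (0.236%). The changes were at least 2-fold for 12 of the higher and 15 of the lower genes. In 15 genes every DIO-CCR tumor lay above every DIO-HFD tumor and in 26 every one lay below, while the groups overlapped in 28. Over all genes tested the groups separated upward in 0.431% and downward in 0.728%. The median difference over all genes was −0.02, and 46.4% of genes had a positive one.

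Most of these calls were near the threshold. Adjusted p-values ran from 0.00884 to 0.0499, and 48 of the 69 lay between 0.04 and 0.05. Only Banp, Eno3, Six4, Slc1a4 and Rgs16 passed whichever array was left out, and each of the other 64 genes missed the threshold without at least 1 array. The number of genes that passed was 5 without DIO-CCR 5, 6 without DIO-CCR 4, 6 without DIO-HFD 5, 7 without DIO-HFD 6, 10 without DIO-HFD 2, 12 without DIO-CCR 1 and 13 without DIO-HFD 4. It was 41 without DIO-CCR 2, 44 without DIO-CCR 3, 44 without DIO-HFD 1, 55 without DIO-HFD 3 and 83 without DIO-CCR 6. The number after a group names the replicate. The split between higher and lower also moved with scaling, to 23 higher and 27 lower after quantile normalization and to 15 higher and 45 lower after centring each array on its median.

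**Figure D1:**
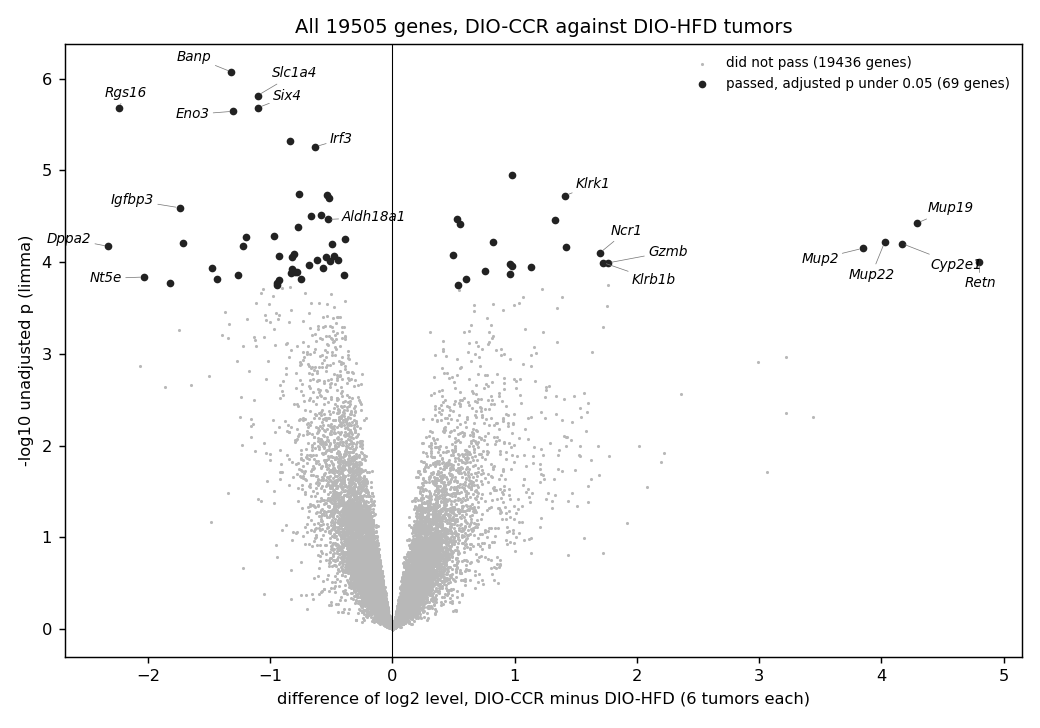
Difference of the log2 level, DIO-CCR minus DIO-HFD (x axis), against −log10 of the unadjusted limma p (y axis) for 19505 genes, 6 tumors per group. The 69 genes that passed are black, with Retn and the major urinary proteins farthest to the right and Dppa2, Rgs16 and Nt5e farthest to the left.

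Some tumors had high levels of genes typical of neighbouring tissue, and the source of that RNA was not tested. Of 9 adipocyte markers measured, all 9 had a higher mean in DIO-CCR and 0 passed, and the mean level of the list was 9.16 to 12.79 in DIO-CCR tumors and 7.15 to 9.96 in DIO-HFD tumors. The list stood 3.24 above the median array in DIO-CCR 3, and at −2.0 relative to it in DIO-HFD 3 and −2.40 in DIO-HFD 6. DIO-HFD 5 carried lymph node genes, at 3.00 above the median array, and DIO-CCR 3 skeletal muscle genes, at 1.12. Of 6 carcinoma markers 5 had a positive difference and 0 passed, with a median of 0.41 (0.20 without DIO-CCR 3). The negative one was Krt8, at 8.99 ± 1.04 in DIO-CCR and 10.85 ± 1.00 in DIO-HFD (SD, n = 6 each). Its difference of −1.86 ± 0.56 did not pass (adjusted p = 0.133). The carcinoma list mean, Krt8 included, was 5.58 in DIO-CCR and 5.43 in DIO-HFD, below the lowest array median of the 12 tumors. The other 5 markers were dimmer still on average, so the count of positive differences rests on dim genes. In whole tumors, fewer cells of a type and less RNA per cell cannot be told apart. With the adipocyte marker level of each tumor as a covariate 32 genes passed, 18 of them among the 69, and with the level of 4 leukocyte markers as a covariate 46 passed, 22 of them among the 69.

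The largest rise was in resistin (Retn, chromosome 8), a hormone that mouse fat cells secrete. Its lowest, median and highest log2 levels were 7.21, 9.24 and 13.12 in DIO-CCR tumors, against 3.45, 4.78 and 5.74 in DIO-HFD tumors. The groups did not overlap, and the difference was 4.80 ± 1.06 (SE), or 27.8-fold (adjusted p = 0.0432). DIO-CCR 3 had the top value, and it was also the tumor with the most adipocyte marker RNA. With the adipocyte covariate the difference was 2.37 and passed (adjusted p = 0.0427). It was 3.45 with the leukocyte covariate, where it did not pass (adjusted p = 0.102). With 1 array left out it lay between 4.07, without DIO-CCR 3, and 5.25, and it missed the threshold for 10 of the 12 arrays.

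Cyp2e1 (chromosome 7), a cytochrome P450 that oxidizes ethanol and small lipophilic compounds, followed the same tumors. It measured 5.42, 7.49 and 12.77 (lowest, median and highest) in DIO-CCR and 2.81, 3.59 and 4.37 in DIO-HFD, again without overlap. The difference was 4.17 ± 0.89, 18-fold (adjusted p = 0.0418), and 2.63 with the adipocyte covariate, where it did not pass (adjusted p = 0.114).

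Other fat genes were not all of one size. Adiponectin (Adipoq) averaged 10.67 ± 1.94 in DIO-CCR and 7.61 ± 1.97 in DIO-HFD (SD, n = 6), which gave a difference of 3.06 ± 1.23 (adjusted p = 0.287). Car3, an abundant carbonic anhydrase of fat cells, differed by 3.22 ± 1.04 (adjusted p = 0.175). Leptin (Lep), the satiety hormone whose blood level follows fat mass, was at 7.12 ± 1.19 in DIO-CCR and 6.44 ± 1.51 in DIO-HFD, a difference of 0.67 ± 0.72 (adjusted p = 0.787), and its sign turned with the adipocyte covariate (−0.95). In the list of fat cell hormones and identity genes, resistin was the only one of 14 measured to pass. Pparg, the master regulator of fat cell formation, was above all DIO-HFD tumors in every DIO-CCR tumor, with a difference of 1.16 ± 0.31 (adjusted p = 0.0893, named after its value was seen).

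Genes of lipid handling leaned the same way without passing. Of 23 genes of lipid storage and lipolysis, 19 had a positive difference and the median was 0.40, with Gpd1, which makes the glycerol backbone of triglyceride, at 2.36 ± 0.72 (adjusted p = 0.146) and Plin4, a lipid droplet coat protein, at 1.36 ± 0.50 (adjusted p = 0.244). The lipases Pnpla2 and Lipe, which release fatty acids from stored fat, were at 0.60 ± 0.23 and 1.20 ± 0.48. Of 14 genes of fatty acid synthesis, 12 were positive with a median of 0.35, and Thrsp, a regulator of lipogenesis, had a difference of 3.44 ± 1.13 (adjusted p = 0.182) and Mlxipl, the glucose-sensing factor ChREBP, one of 0.94 ± 0.32. DIO-CCR 3 held the top list mean for both lists. Without that tumor the median was 0.17 for lipid storage and 0.11 for fatty acid synthesis, and with the adipocyte covariate −0.06 and 0.19. That covariate is the mean of fat cell genes, Pnpla2 and Lipe among them. A fall of the lipid storage median under it was therefore built in and is no separate test. The lists of fatty acid oxidation (median −0.08, 19 genes), cholesterol synthesis (0.06, 17 genes) and oxidative phosphorylation (−0.0033, 25 genes) had 0 members that passed.

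Dio2 and Ppargc1b also rose. Dio2 (chromosome 12), the deiodinase that makes active thyroid hormone within tissues, measured 5.52, 6.53 and 7.71 in DIO-CCR and 4.77, 5.18 and 5.83 in DIO-HFD. The groups overlapped slightly, and the difference of 1.33 ± 0.27 passed (adjusted p = 0.0372). Ppargc1b, a coactivator that drives mitochondrial genes, measured 4.71, 5.0 and 5.30 in DIO-CCR and 3.81, 3.94 and 4.58 in DIO-HFD. It did not overlap between the groups (0.96 ± 0.22, adjusted p = 0.0448), and it lies outside the rule for named genes and was chosen after its values were seen. With the adipocyte covariate Dio2 was at 1.27 (adjusted p = 0.0732) and Ppargc1b at 0.65 (adjusted p = 0.168), and neither passed. With 1 array left out, Dio2 missed the threshold for 7 of the 12 arrays and Ppargc1b for 11.

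Major urinary proteins are small carriers of pheromones and hydrophobic compounds, made mainly in liver and encoded by a cluster of near-identical genes on chromosome 4. Mup19 measured 7.37, 9.96 and 13.16 (lowest, median and highest) in DIO-CCR tumors, against 4.60, 5.92 and 7.40 in DIO-HFD tumors, a difference of 4.29 ± 0.88 and 19.6-fold (adjusted p = 0.0375). Mup22 differed by 4.03 ± 0.86 (adjusted p = 0.0418) and Mup2 by 3.85 ± 0.83 (adjusted p = 0.0418). In the Mup2 measurements the groups did not overlap, and for the others a single pair of tumors touched. The 3 measurements are not independent, because probes of one gene can bind RNA of another. The other 4 members measured had differences of 0.05 to 0.48 and did not pass. With the adipocyte covariate Mup19 differed by 3.36 (adjusted p = 0.0987), Mup22 by 3.09 and Mup2 by 3.03.

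The promoters of Mup2 and Mup19 are nearly alike, which does not show how alike the RNAs are that the probes bind. The RefSeq windows of Mup2 and Mup19 (GRCm38.p6, 250 bases before to 50 bases after the annotated start, printed in the direction of transcription) align over 294 bases, gaps not counted, of which 291 (99%) are identical. Mup2 lies at chr4:60139807-60140106 and Mup19 at chr4:61782175-61782474, both on the minus strand. Capitals mark the letters TATATAA, known from promoters with a fixed start, which were searched on both strands and found in 3.24% of all 32851 windows of this kind.
Mup2: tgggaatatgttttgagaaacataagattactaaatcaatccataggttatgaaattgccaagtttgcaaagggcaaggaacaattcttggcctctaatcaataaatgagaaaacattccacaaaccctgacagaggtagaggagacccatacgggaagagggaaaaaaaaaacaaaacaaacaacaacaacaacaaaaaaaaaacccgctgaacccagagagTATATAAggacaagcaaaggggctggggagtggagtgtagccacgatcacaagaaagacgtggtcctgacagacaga
Mup19: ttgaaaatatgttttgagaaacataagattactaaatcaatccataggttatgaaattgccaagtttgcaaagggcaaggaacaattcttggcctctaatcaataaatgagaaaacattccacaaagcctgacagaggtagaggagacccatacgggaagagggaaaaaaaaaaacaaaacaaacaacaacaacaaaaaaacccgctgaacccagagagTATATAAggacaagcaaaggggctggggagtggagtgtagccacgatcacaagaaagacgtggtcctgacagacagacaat

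Of the natural killer cell receptors, Klrk1, Ncr1 and Klrb1b rose in DIO-CCR tumors. Klrk1 (chromosome 6) encodes NKG2D, which binds stress-induced ligands on tumor cells. It measured 7.88, 8.67 and 9.07 in DIO-CCR and 6.28, 7.22 and 7.76 in DIO-HFD, with no overlap and a difference of 1.41 ± 0.28, 2.66-fold (adjusted p = 0.0325). Ncr1 (chromosome 7) encodes NKp46, the receptor most restricted to these cells. Its levels were 5.91, 7.49 and 7.71 in DIO-CCR and 4.97, 5.39 and 5.88 in DIO-HFD, separated by a narrow margin, and the difference was 1.70 ± 0.37, 3.25-fold (adjusted p = 0.0432). Klrb1b (chromosome 6), an inhibitory receptor of the NKR-P1 family, was at 9.56, 10.31 and 11.83 in DIO-CCR against 7.79, 8.73 and 9.5 in DIO-HFD, a difference of 1.72 ± 0.38 (adjusted p = 0.0432). None of the 3 overlapped between the groups.

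Over the whole natural killer list 15 of 18 measured genes had a positive difference, 2 passed and the median was 0.40, against 46.4% positive and a median of −0.02 over all genes. Higher at an unadjusted p under 0.05 were 7 of the 18, beside 4.8% of all genes. This list too was written with earlier results of these data known, so its shares are no separate evidence. Klrc1 and Klrb1c, further receptors of the same gene complex on chromosome 6, were at 1.57 ± 0.48 (adjusted p = 0.145) and 0.99 ± 0.33 (adjusted p = 0.191) and were named after their values were seen. The list mean was lowest in DIO-CCR 3 among DIO-CCR tumors, at 5.66, where it fell within the DIO-HFD range of 5.25 to 5.81. The other 5 DIO-CCR tumors lay above that range. With the adipocyte covariate the list median was 0.43, and Klrk1 (1.41, adjusted p = 0.0517) and Ncr1 (1.70, adjusted p = 0.0732) kept their size and did not pass. General leukocyte markers were also higher on average, in 4 of 4 genes with 0 that passed, and their mean level was 11.11 to 12.41 in DIO-CCR and 10.78 to 11.81 in DIO-HFD. With that level as a covariate Klrk1 was at 1.18 (adjusted p = 0.0596), Ncr1 at 1.46 (adjusted p = 0.0889) and Klrb1b at 1.28 (adjusted p = 0.103).

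Granzyme B (Gzmb, chromosome 14), the protease that cytotoxic granules deliver into target cells, measured 7.40, 9.51 and 10.27 in DIO-CCR and 6.82, 7.40 and 7.99 in DIO-HFD. DIO-CCR 3, at 7.40, was the only DIO-CCR tumor within the DIO-HFD range. The difference was 1.77 ± 0.39, 3.40-fold (adjusted p = 0.0432), and 2.16 with the adipocyte covariate (adjusted p = 0.0217). With the leukocyte covariate it was 1.83 (adjusted p = 0.0596) and with the tumors that carried lymph node genes left out it was 1.65 (adjusted p = 0.0842). It also missed the threshold after quantile normalization, after median centring and, singly, without 11 of the 12 arrays. Of 15 cytotoxic genes 14 had a positive difference, with a median of 0.50 and 1 that passed. Gzma, another granzyme, differed by 1.76 ± 0.41 and perforin (Prf1) by 1.23 ± 0.32 (adjusted p = 0.0501 and 0.0816, both named after their values were seen). Interferon gamma itself (Ifng) was at 5.32 ± 0.47 in DIO-CCR and 5.05 ± 0.35 in DIO-HFD, a difference of 0.27 ± 0.31 (adjusted p = 0.809).

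Some other passing genes are known from immune cells or act on their products. Serpinb9 (chromosome 13), the intracellular inhibitor of granzyme B that shields cells from it, measured 10.58, 10.77 and 11.05 in DIO-CCR and 9.30, 9.85 and 10.30 in DIO-HFD. The groups did not overlap and the difference was 0.96 ± 0.21 (adjusted p = 0.0435). Il18bp, a decoy that neutralizes the lymphocyte-activating cytokine IL-18, was at 9.51, 9.91 and 10.19 in DIO-CCR and 8.69, 9.15 and 9.25 in DIO-HFD (0.82 ± 0.17, adjusted p = 0.0418, chosen after its values were seen). Sirpb1c (chromosome 3), an activating receptor of myeloid cells from a family of close copies, differed by 1.14 ± 0.25 without overlap (adjusted p = 0.0435). Hrh2, the histamine receptor of gastric and immune cells, measured 5.33, 6.46 and 7.05 in DIO-CCR and 4.15, 5.11 and 5.40 in DIO-HFD, a difference of 1.42 ± 0.31 (adjusted p = 0.0418). The remaining genes among the 15 largest rises were Rab11fip4, an endosome adaptor (0.98 ± 0.22, adjusted p = 0.0435), and Arhgef37 (0.98 ± 0.18, adjusted p = 0.0274), neither of which overlapped between the groups.

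**Figure D2:**
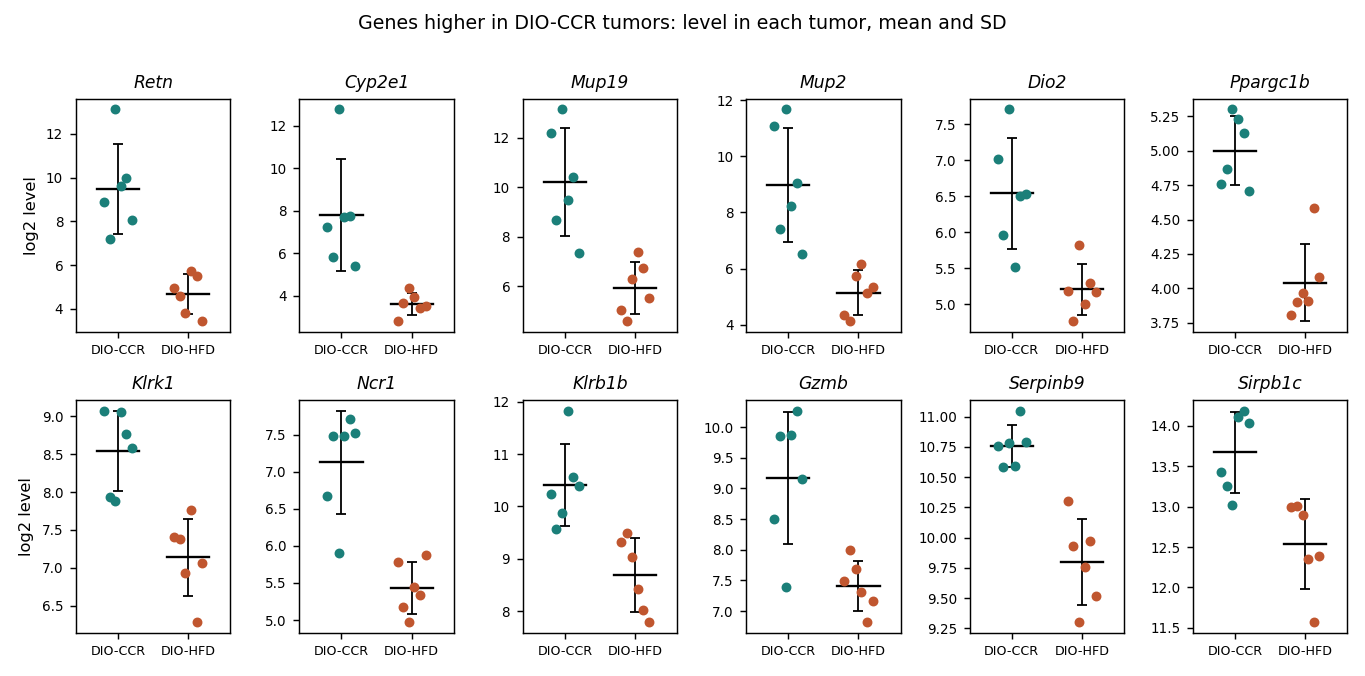
Log2 level (y axis) of 12 genes that passed with a higher level in DIO-CCR tumors, 1 point per tumor, with the mean and SD of 6 tumors as black lines. DIO-CCR 3 is the highest DIO-CCR tumor for Retn, Cyp2e1 and Mup19 (13.12, 12.77 and 13.16) and the lowest for Gzmb and Ncr1 (7.40 and 5.91).

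No other immune list held a gene that passed, though most leaned upward. Of 16 T cell genes 13 were positive with a median of 0.44, which was 0.25 without DIO-HFD 3, 0.70 without DIO-HFD 5 and turned to −0.27 with the adipocyte covariate. Cd8a, the coreceptor of cytotoxic T cells, was at 7.12 ± 0.81 in DIO-CCR and 5.81 ± 1.06 in DIO-HFD, a difference of 1.31 ± 0.61 (adjusted p = 0.383), and the costimulators Cd28 and Icos were at 0.85 ± 0.37 and 0.96 ± 0.43. Of 19 checkpoint and regulatory T cell genes 16 were positive (median 0.45). The inhibitory receptors Ctla4 (1.28 ± 0.38, adjusted p = 0.131) and Pdcd1 (1.11 ± 0.36, adjusted p = 0.182), the costimulator Tnfrsf18 (0.79 ± 0.29) and the ligand Cd274, PD-L1 (0.60 ± 0.25, adjusted p = 0.307), were the members looked at singly. B and plasma cell genes had a median of −0.65, with 12 of 14 negative, among them Pou2af1 (−1.48 ± 0.78) and Cd79a (−1.22 ± 0.96). That median was −0.03 without DIO-HFD 5, the tumor with lymph node genes, in which Cd79a was at 8.70 beside 3.94 to 4.40 in the other DIO-HFD tumors.

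Among myeloid lists the monocyte genes were positive in 14 of 15 (median 0.53), with Ccr2, the chemokine receptor that brings monocytes into tissue, above all DIO-HFD tumors in every DIO-CCR tumor (1.07 ± 0.25, adjusted p = 0.0582). Ly6c2 and Ms4a4c were at 1.16 ± 0.34 (adjusted p = 0.123) and 0.81 ± 0.21 (adjusted p = 0.0841). Neutrophil genes were positive in 16 of 17 (median 0.70, or 0.43 without DIO-CCR 5), with S100a8 at 1.68 ± 0.61, S100a9 at 0.70 ± 0.67 and the growth factor receptor Csf3r at 0.72 ± 0.28. Mast cell, basophil and eosinophil genes were positive in 15 of 16 (median 0.26), led by the histamine-making enzyme Hdc (1.26 ± 0.38, adjusted p = 0.133) and the proteases Mcpt4 (1.04 ± 0.32) and Tpsb2 (1.05 ± 0.33). The macrophage list was mixed, with a median of 0.19 that was 0.045 when DIO-HFD 1 was left out, 0.38 when DIO-HFD 2 was, and turned to −0.036 with the adipocyte covariate. Its general marker Adgre1 was at 12.20 ± 0.40 in DIO-CCR and 12.19 ± 0.24 in DIO-HFD, and Fcrls, an Fc receptor-like gene of resident macrophages, was lower in every DIO-CCR tumor (−1.75 ± 0.45, adjusted p = 0.0805).

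Signals between immune cells had small and broad differences. Of 20 interferon gamma response genes 19 were positive with a median of 0.41, and Gbp2, a guanylate-binding protein, and Psmb10, an immunoproteasome subunit, were above every DIO-HFD tumor in every DIO-CCR tumor (0.85 ± 0.30 and 0.77 ± 0.22). Cxcl9, which draws T cells, was at 12.84 ± 0.90 in DIO-CCR and 11.69 ± 0.81 in DIO-HFD, a difference of 1.16 ± 0.42 (adjusted p = 0.234). Type I interferon genes were positive in 24 of 25 with a median of 0.19, and had Mx1 at 0.81 ± 0.25 and Zbp1 at 0.67 ± 0.25. That median rested on single tumors, at 0.032 without DIO-HFD 3, 0.055 without DIO-HFD 5 and 0.32 without DIO-HFD 4, and it was 0.43 with the adipocyte covariate. Irf3, the factor that starts the interferon response to viral and cytosolic nucleic acid, went the other way. It measured 9.68, 9.81 and 10.20 in DIO-CCR and 10.21, 10.59 and 10.69 in DIO-HFD, a difference of −0.63 ± 0.11 (adjusted p = 0.0154, chosen after its values were seen). Of 26 chemokines 19 were positive (median 0.30, from 0.18 without DIO-CCR 5 to 0.48 without DIO-HFD 2), with Ccl4 at 0.91 ± 0.27 and Cxcl1 at 1.53 ± 0.56. Of the 12 tumors, DIO-HFD 2 had the highest mean of the chemokine list.

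**Figure D3:**
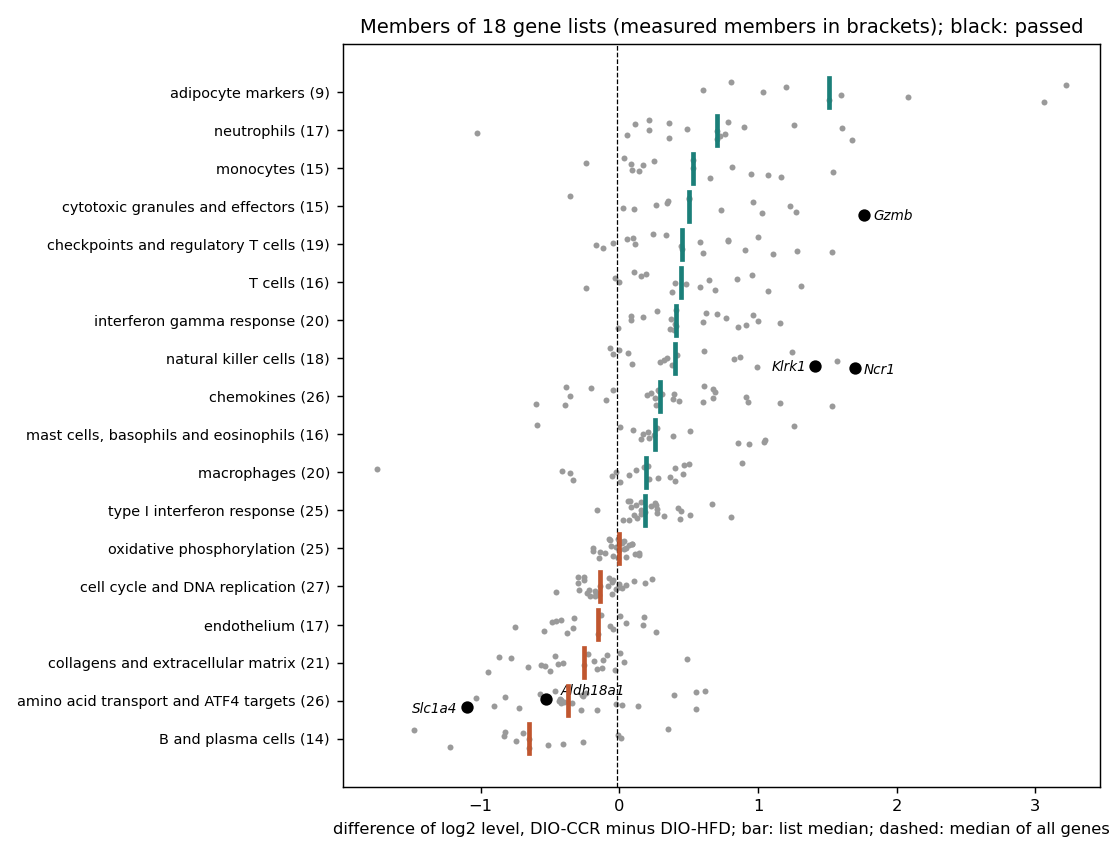
Difference of the log2 level, DIO-CCR minus DIO-HFD (x axis), of each measured member of 18 gene lists (rows, number of members in brackets), with the list median as a coloured bar and genes that passed in black. Medians run from −0.65 for B and plasma cells to 1.51 for adipocyte markers, and in these lists Gzmb, Klrk1, Ncr1, Slc1a4 and Aldh18a1 passed.

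Slc1a4 and Aldh18a1, of amino acid transport and synthesis, fell in DIO-CCR tumors. Slc1a4 (chromosome 11), the ASCT1 transporter of serine, alanine and other neutral amino acids, was among the 5 genes with the smallest adjusted p. It measured 9.26, 9.40 and 9.79 in DIO-CCR and 10.02, 10.49 and 11.01 in DIO-HFD, with no overlap and a difference of −1.10 ± 0.18 (adjusted p = 0.00884). Aldh18a1 (chromosome 19), the enzyme that starts proline synthesis from glutamate, measured 13.35, 13.68 and 13.74 in DIO-CCR and 14.07, 14.15 and 14.25 in DIO-HFD, a difference of −0.53 ± 0.11 (adjusted p = 0.0372). Its groups were also separate, and its spread within DIO-HFD was an SD of only 0.07. With 1 array left out, Aldh18a1 missed the threshold for 8 of the 12 arrays. It also missed it with the adipocyte covariate (−0.55, adjusted p = 0.0517) and without the tumors that carried lymph node genes (−0.52, adjusted p = 0.0548). With the leukocyte covariate it passed, at −0.54 (adjusted p = 0.0483).

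Of the 26 measured genes of amino acid transport and ATF4 targets, 2 passed, both lower, and 20 had a negative difference. The median was −0.37, stayed between −0.43 and −0.30 without any 1 array and was −0.38 with the adipocyte covariate. At an unadjusted p under 0.05, 16 of the 26 were lower, beside 7.26% of all genes. The list was written with earlier results of these data known, so these shares are no separate evidence. Members that did not pass, named after their values were seen, included Chac1, which degrades glutathione (−1.03 ± 0.26, adjusted p = 0.0752), the pseudokinase Trib3 (−0.82 ± 0.22, adjusted p = 0.0922), the serine synthesis enzyme Psat1 (−0.42 ± 0.12), asparagine synthetase (Asns, −0.34 ± 0.11) and Atf4 itself (−0.27 ± 0.08, adjusted p = 0.153). Not all members leaned down, since Cth, which makes cysteine, was at 0.62 ± 0.19 and the cystine importer Slc7a11 at 0.56 ± 0.46. The list mean was 11.15 to 11.45 in DIO-CCR tumors and 11.38 to 11.82 in DIO-HFD tumors, with a narrow overlap.

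Further genes of this kind passed outside the list and were chosen after their values were seen. Pck2, the mitochondrial enzyme that feeds serine and glycerol synthesis, was at 9.36, 10.23 and 10.46 in DIO-CCR and 10.49, 10.90 and 11.27 in DIO-HFD (−0.82 ± 0.18, adjusted p = 0.0432). Nupr1, a small stress-response nuclear protein, was at 11.29, 11.62 and 11.82 in DIO-CCR and 11.99, 12.13 and 12.36 in DIO-HFD (−0.53 ± 0.10, adjusted p = 0.0325). Both separated the groups completely. Cebpg, which pairs with ATF4 on DNA, differed by −0.44 ± 0.10 (adjusted p = 0.0432). The enzymes that charge tRNA with cysteine (Cars) and isoleucine (Iars) differed by −0.52 ± 0.10 (adjusted p = 0.0325) and −0.39 ± 0.09 (adjusted p = 0.0450), with overlap.

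Because ATF4 and C/EBP proteins bind a composite element known by the letters TGATGNAA, the promoter windows of these genes were searched for it on both strands. It was found in 3.97% of all 32851 windows, in 7 of 21 genes of the list that have a window, in 4 of 36 lower genes with a window and in 1 of 19 higher genes with a window. The list was drawn up to hold ATF4 targets, so its share is no separate evidence, and Slc1a4 counts both there and among the lower genes. Of the genes described above, Aldh18a1, Cebpg, Psat1 and Atf4 had no match, and Cars had no window. The 4 lower genes are printed with the match in capitals, which in each reads on the strand opposite to the gene (TTGCATCA or TTACATCA). Slc1a4 lies at chr11:20332664-20332963 and Nupr1 at chr7:126625421-126625720, on the minus strand. Pck2 lies at chr14:55540016-55540315 and Iars at chr13:49681880-49682179, on the plus strand, and all are 300-base RefSeq windows of GRCm38.p6. The match ends 96 bases before the start in Pck2 and 103 before it in Nupr1, spans the start in Slc1a4 and follows it in Iars. A match is a description of letters, not of binding.
Slc1a4: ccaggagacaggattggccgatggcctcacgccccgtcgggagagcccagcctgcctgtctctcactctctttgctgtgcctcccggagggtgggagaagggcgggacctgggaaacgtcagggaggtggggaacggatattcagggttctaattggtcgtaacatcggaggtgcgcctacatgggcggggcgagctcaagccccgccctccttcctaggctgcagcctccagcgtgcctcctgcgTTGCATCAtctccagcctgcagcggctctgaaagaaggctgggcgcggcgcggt
Pck2: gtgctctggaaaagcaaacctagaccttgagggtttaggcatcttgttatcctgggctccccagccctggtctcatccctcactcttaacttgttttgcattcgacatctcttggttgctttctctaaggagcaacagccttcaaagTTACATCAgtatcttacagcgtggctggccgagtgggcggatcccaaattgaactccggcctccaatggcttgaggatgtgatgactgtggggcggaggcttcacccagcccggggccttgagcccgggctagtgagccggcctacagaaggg
Nupr1: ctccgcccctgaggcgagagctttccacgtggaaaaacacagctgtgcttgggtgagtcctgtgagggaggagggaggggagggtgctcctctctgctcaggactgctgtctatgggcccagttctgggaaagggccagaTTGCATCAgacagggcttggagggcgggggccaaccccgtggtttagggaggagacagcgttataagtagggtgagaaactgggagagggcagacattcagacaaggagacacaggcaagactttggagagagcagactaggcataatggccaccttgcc
Iars: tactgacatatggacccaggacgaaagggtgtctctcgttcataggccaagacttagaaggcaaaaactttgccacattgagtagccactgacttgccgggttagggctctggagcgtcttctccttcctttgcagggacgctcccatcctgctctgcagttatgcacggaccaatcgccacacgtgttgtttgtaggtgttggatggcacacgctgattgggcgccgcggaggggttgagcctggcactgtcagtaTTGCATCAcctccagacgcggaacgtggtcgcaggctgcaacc

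Igfbp3 and Nt5e fell, each the only member of its list to pass. Igfbp3 (chromosome 11), the main carrier of insulin-like growth factors in blood, measured 8.52, 9.53 and 11.06 in DIO-CCR and 10.59, 11.26 and 12.53 in DIO-HFD, a difference of −1.74 ± 0.35, 3.34-fold (adjusted p = 0.0372). Only DIO-CCR 6 reached the DIO-HFD range. It was the only one of 18 genes of the insulin-like growth factor axis to pass, and Igf1 was at 11.55 ± 0.82 in DIO-CCR and 11.87 ± 0.55 in DIO-HFD (−0.32 ± 0.44, adjusted p = 0.846). Nt5e (chromosome 9) encodes CD73, the enzyme that turns extracellular AMP into the immunosuppressive adenosine. It measured 9.62, 10.01 and 11.29 in DIO-CCR and 10.89, 12.38 and 13.12 in DIO-HFD, a difference of −2.03 ± 0.46, 4.09-fold (adjusted p = 0.0465). Again DIO-CCR 6 alone lay within the range of the other group, and the other 7 genes of adenosine production and sensing did not pass. With 1 array left out, Igfbp3 missed the threshold for 7 of the 12 arrays and Nt5e for 10. With the adipocyte covariate Igfbp3 was at −1.43 (adjusted p = 0.09) and Nt5e at −1.83 (adjusted p = 0.121). With the leukocyte covariate they were at −1.64 (adjusted p = 0.0579) and −2.17 (adjusted p = 0.0595), so neither passed with either covariate.

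Rgs16 (chromosome 1), which switches off G protein signaling downstream of chemokine and other receptors, was one of the firmest falls. It measured 6.40, 6.88 and 8.18 in DIO-CCR and 8.44, 9.09 and 10.83 in DIO-HFD, a difference of −2.24 ± 0.38, 4.71-fold (adjusted p = 0.00884). The groups were separate, and the difference lay between −2.46 and −1.93 whichever array was left out. Also among the 15 largest falls were the adhesion protein Flrt2 (−1.82 ± 0.42, adjusted p = 0.0492), the guidance protein Sema3b (−1.47 ± 0.33, adjusted p = 0.0435) and the collagen receptor kinase Ddr1 (−1.44 ± 0.33, adjusted p = 0.0470), of which only Ddr1 did not overlap. Kcne3, a potassium channel subunit, differed by −1.20 ± 0.25 (adjusted p = 0.0418) and the SNARE protein Snap47 by −1.23 ± 0.26 (adjusted p = 0.0418).

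Several of the largest falls were in genes of nuclear proteins, a grouping made after their values were seen and not tested. Banp (chromosome 8), a DNA-binding protein that opens CpG island promoters, measured 10.42, 10.84 and 11.51 in DIO-CCR and 11.75, 12.20 and 12.53 in DIO-HFD, a difference of −1.32 ± 0.21 (adjusted p = 0.00884). Six4 (chromosome 12), a homeobox factor of muscle and organ development, measured 10.90, 11.14 and 11.42 in DIO-CCR and 11.88, 12.21 and 12.60 in DIO-HFD, a difference of −1.10 ± 0.18 (adjusted p = 0.00884). Neither overlapped between the groups. Dppa2 (chromosome 16), a chromatin factor of pluripotent cells, had the largest fall, −2.32 ± 0.50 (adjusted p = 0.0418), and measured 6.09, 7.03 and 9.07 in DIO-CCR and 8.87, 9.78 and 10.25 in DIO-HFD. Znhit3, a chaperone of small nucleolar RNA particles (−1.71 ± 0.36, adjusted p = 0.0418), and Zfp57, which maintains imprints (−1.26 ± 0.29, adjusted p = 0.0450), overlapped between the groups. DIO-CCR 6 was the highest DIO-CCR tumor for Dppa2, Znhit3, Igfbp3, Nt5e and Rgs16. Creb1, the factor that answers cyclic AMP, was nearly constant in DIO-CCR at 12.04 to 12.14, and lay at 12.43 to 12.92 in DIO-HFD (−0.48 ± 0.10, adjusted p = 0.0432, chosen after its values were seen).

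Eno3, Nr1d1 and Gadd45a also fell. Eno3 (chromosome 11), the muscle form of the glycolytic enzyme enolase, measured 7.78, 7.95 and 8.52 in DIO-CCR and 8.90, 9.38 and 9.91 in DIO-HFD, a difference of −1.30 ± 0.22 (adjusted p = 0.00884). The muscle marker list as a whole did not follow it (median 0.16, 10 genes). Nr1d1, the REV-ERBα repressor of the circadian clock, measured 9.86, 10.53 and 11.05 in DIO-CCR and 11.16, 11.34 and 11.74 in DIO-HFD, a difference of −0.97 ± 0.20 (adjusted p = 0.0418). It was 1 of 18 clock genes to pass. Per3 was lower in every DIO-CCR tumor (−0.78 ± 0.21, adjusted p = 0.0888) and Cry1 higher in every one (0.58 ± 0.15, adjusted p = 0.0816), both named after their values were seen, and the list median was −0.02. Gadd45a, a DNA damage and FOXO target, differed by −0.83 ± 0.19 without overlap (adjusted p = 0.0448) and was the 1 of 20 FOXO and fasting genes that passed.

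**Figure D4:**
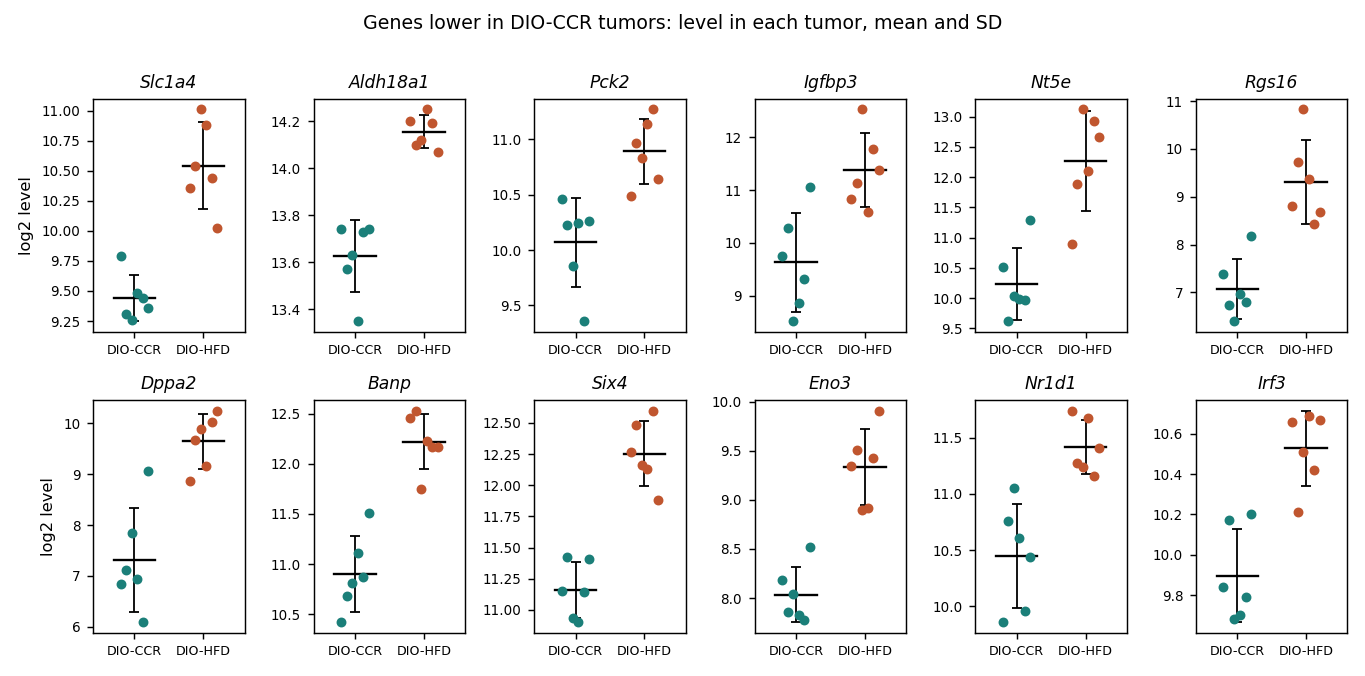
Log2 level (y axis) of 12 genes that passed with a lower level in DIO-CCR tumors, 1 point per tumor, with the mean and SD of 6 tumors as black lines. The groups are separate for 9 of the genes shown, and for Igfbp3, Nt5e and Dppa2 a single DIO-CCR tumor, replicate 6, reaches into the DIO-HFD range (11.06, 11.29 and 9.07).

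Lists of stroma held 0 genes that passed. The list of fibroblasts of fat and tumor stroma was even, with 7 of 14 positive and a median of 0.02 (−0.10 to 0.07 with 1 array left out). Collagen and matrix genes were negative in 18 of 21 (median −0.25, from −0.47 without DIO-CCR 1 to −0.14 without DIO-HFD 2), with Col6a2 lower in every DIO-CCR tumor (−0.57 ± 0.21, adjusted p = 0.233), Col6a3 at −0.44 ± 0.18, Col5a1 at −0.66 ± 0.26 and Col1a1 at −0.95 ± 0.59. The pericyte and fibroblast receptor Pdgfrb was lower in every DIO-CCR tumor (−0.67 ± 0.17, adjusted p = 0.0805). Of 15 genes of epithelial-mesenchymal transition 11 were negative (median −0.14), with Tgfb2 at −1.0 ± 0.25 (adjusted p = 0.0770), Tgfb1 at −0.26 ± 0.08 and Zeb1 at −0.29 ± 0.10. Endothelial genes had a median of −0.16, which ran from −0.31 without DIO-CCR 5 to −0.084 without DIO-CCR 3, with Emcn (−0.75 ± 0.28), Mcam (−0.64 ± 0.22) and the VEGF receptor Flt1 (−0.55 ± 0.18). The erythroid enzyme Alas2 was at −1.34 ± 0.35 (adjusted p = 0.0841) and tissue plasminogen activator (Plat) at −0.87 ± 0.25 (adjusted p = 0.116).

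Cell cycle genes were negative in 22 of 27 with a median of −0.14. Mki67, the proliferation marker Ki-67, was at 13.36 ± 0.19 in DIO-CCR and 13.53 ± 0.14 in DIO-HFD (−0.17 ± 0.12, adjusted p = 0.635), and the mitotic kinases Aurka and Plk1 and the topoisomerase Top2a were at −0.46 ± 0.15, −0.29 ± 0.10 and −0.21 ± 0.09. The glucocorticoid-induced list had a median of 0.09, and Fkbp5, its most used marker, was at 14.97 ± 0.32 in DIO-CCR and 15.26 ± 0.30 in DIO-HFD (−0.29 ± 0.16, adjusted p = 0.49).

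Against intermittent restriction, DIO-CCR tumors had 0 genes that passed by limma (0%), and 928 genes (4.76%) had an unadjusted p under 0.05, 2.46% of all genes higher and 2.3% lower. The smallest adjusted p was 0.770, and every alternative that was run also gave 0 genes. Of the genes named here Dio2 had the smallest unadjusted p in this comparison, with a mean of 6.54 in DIO-CCR and 5.47 in DIO-ICR (difference 1.07, not past the threshold after adjustment). A miss of the threshold does not show that the regimens act alike. The median standard error of a difference in the DIO-HFD comparison, with as many tumors, was 0.179.

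Against never-obese mice, 81 genes (0.415%) passed, 42 higher (0.215%) and 39 lower (0.2%) in DIO-CCR. At an unadjusted p under 0.05, 6.56% of all genes were higher and 4.87% lower. Retn averaged 9.48 in DIO-CCR and 4.63 in CON-LFD, a difference of 4.85 ± 1.06 (adjusted p = 0.0323). Cyp2e1 averaged 7.79 in DIO-CCR and 3.52 in CON-LFD (4.27 ± 0.89, adjusted p = 0.0226), and Ncr1 averaged 7.13 in DIO-CCR and 5.33 in CON-LFD (1.80 ± 0.37, adjusted p = 0.0209). Car3 was also higher (4.84 ± 1.04, adjusted p = 0.0273). Lower in DIO-CCR than in CON-LFD were Banp (−1.03 ± 0.21, adjusted p = 0.0209), Zfp57 (−1.42 ± 0.29, adjusted p = 0.0207), Six4 (−0.84 ± 0.18, adjusted p = 0.0323), Plat (−1.35 ± 0.25, adjusted p = 0.0183) and the neutrophil protein S100a9 (−2.94 ± 0.67, adjusted p = 0.0437). Retn, Cyp2e1, Ncr1, Banp, Zfp57 and Six4 passed in both comparisons, which share the DIO-CCR tumors, while Car3, Plat and S100a9 passed against CON-LFD and not against DIO-HFD. Slc1a4 and Aldh18a1 averaged 9.44 and 13.63 in DIO-CCR and 9.36 and 13.59 in CON-LFD, differences of 0.08 and 0.04 that did not pass. The count was 0 without CON-LFD 3, 22 without DIO-CCR 5, 32 without DIO-CCR 4, 35 without CON-LFD 2, 44 without DIO-CCR 6, 46 without CON-LFD 4, 47 without DIO-CCR 3 and 155 without DIO-CCR 2. With the adipocyte covariate 4 genes passed.

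**Figure D5:**
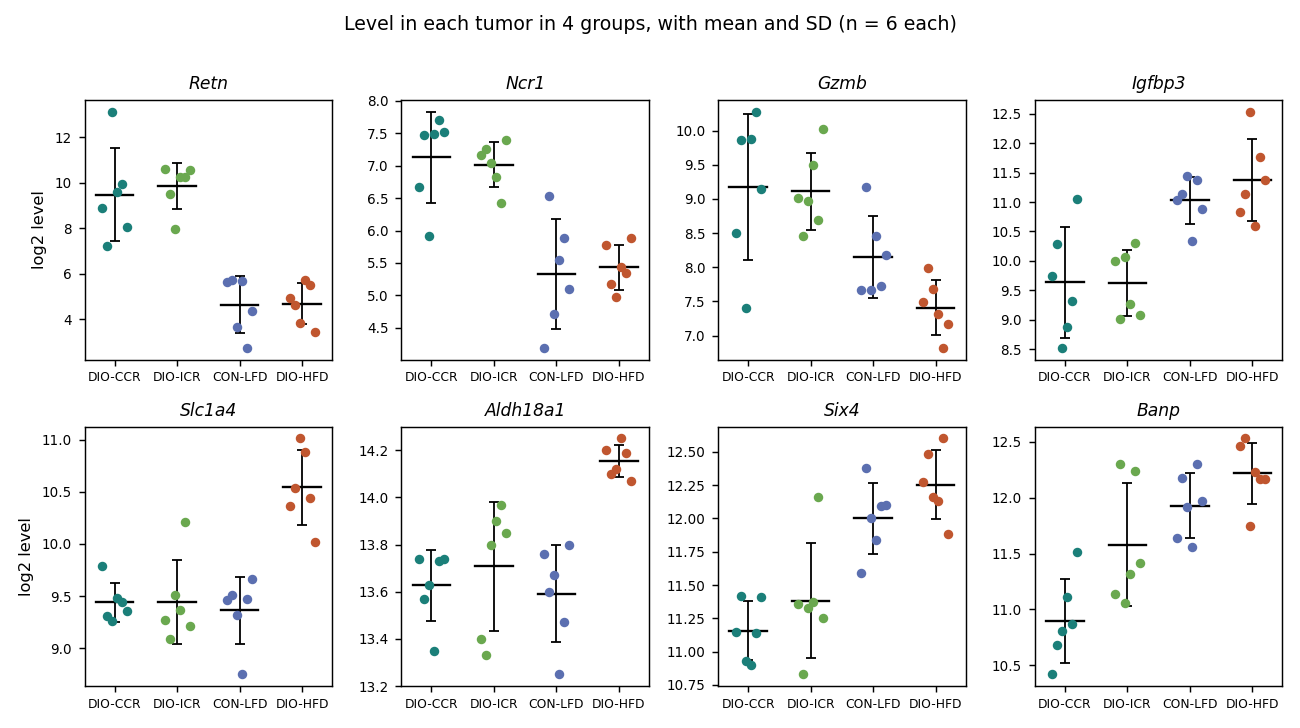
Log2 level (y axis) of 8 genes in tumors of DIO-CCR, DIO-ICR, CON-LFD and DIO-HFD mice, 1 point per tumor, with the mean and SD of 6 tumors as black lines. Slc1a4 and Aldh18a1 are highest in DIO-HFD (means 10.54 and 14.15), whereas Retn and Ncr1 are high under both restriction regimens (Retn 9.48 in DIO-CCR and 9.86 in DIO-ICR, against 4.63 in CON-LFD and 4.68 in DIO-HFD).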

How the data were processed

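The authors isolated RNA from each tumor, labelled it for Mouse Clariom S arrays and deposited log2 levels made by signal space transformation and robust multi-array averaging. These were used as deposited, with 0 missing values. Of 22206 probe sets, 19572 had 1 gene symbol, and the brightest was kept where a symbol had several, which left 19505 genes. For the probe design, no source used here names a genome build. No read depth exists for arrays, and 6 arrays per group limit the precision. Array medians of the 12 tumors lay between 6.45 and 6.60.

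The model, 1 mean for each of 5 groups of 6 arrays (30 in all, 25 residual degrees of freedom), was fitted with limma 3.58.1 in R 4.3.3 and eBayes, two-sided, with Benjamini-Hochberg adjustment over 19505 genes. A ± gives the standard error for differences and the SD for group means. Each label numbers its own mouse, p-values measure the spread between tumors, and no batch was given. Genes named are the 15 largest rises and 15 largest falls that passed, for each list described the members that passed or otherwise the 3 with the smallest p, a panel of 17 of which 16 were measured, and genes marked as chosen later. For the 54 gene lists, counts and medians are given without a test. Members, lists and panel were chosen with earlier results of these data known. Promoters were read from RefSeq with Python 3.11 and aligned with Biopython 1.88, and 55 of the 69 genes had a window. The fit was tested on simulated data. These had independent noise with the same SD in every group for a gene, and no tumors with high levels of genes of other tissues. They therefore cannot show how single tumors move the counts.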

Additional observations from a re-analysis of the deposited data

Results flagged for a closer look

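In groups of 6, a tumor was set aside for a look where its gap to the nearest other tumor was a larger share of the range of its group than the critical value of Dixon's test. Of 334 groups of values looked at, 25 met this, and chance alone meets it in about 1 in 20. DIO-CCR 3 was the highest DIO-CCR tumor for Cyp2e1 (12.77, others 5.42 to 7.74), Pnpla2 (13.39), Lipe (10.90) and the list means of lipid storage and lipolysis (10.59), fatty acid synthesis (12.62), epithelial keratins and junctions (4.777) and carcinoma cells (6.557). DIO-CCR 6 was highest for Cars (13.51, others 12.89 to 13.02) and lowest for Col6a3 (13.26, others 14.07 to 14.13). DIO-CCR 2 was lowest for Cebpg (12.13) and Adgre1 (11.43) and highest for mammary epithelium (4.157), and DIO-CCR 1 was lowest for Creb1 (12.04).

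DIO-HFD 5 was the highest DIO-HFD tumor for Ppargc1b (4.58), Plin4 (5.81), Cd79a (8.70) and the list means of B and plasma cells (7.782, others 4.644 to 4.966) and lymph node tissue (7.397, others 4.097 to 4.308). DIO-HFD 2 was highest for chemokines (9.82), NF-kB and TNF targets (10.06) and IL6, JAK and STAT3 genes (11.07). DIO-HFD 1 was lowest for Tgfb2 (7.46), Krt8 (8.94) and mammary epithelium (3.562), and DIO-HFD 3 was lowest for Gbp2 (12.19).

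The difference from DIO-HFD was not the same in DIO-CCR as in CON-LFD, by the DIO-CCR minus CON-LFD contrast of the limma fit, for Retn (4.85), Cyp2e1 (4.27), Ncr1 (1.80), Car3 (4.84), Banp (−1.03), Zfp57 (−1.42), Six4 (−0.84), S100a9 (−2.94) and Plat (−1.35), each with an adjusted p under 0.05. Among 2634 probe sets without a gene name, 4 passed in DIO-CCR against DIO-HFD when all probe sets were tested, and they are not described in the report.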

How the results depend on the processing

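Of the 69 genes of DIO-CCR against DIO-HFD, 49 also passed after quantile normalization, 54 after median centring, 11 with only both groups in the fit, 18 with the adipocyte covariate and 22 with the leukocyte covariate, and 4 passed under all 24 settings per gene. The count was 27 with a change of at least 1 on the log2 scale, 106 without the 30% dimmest genes, 18 with only both groups fitted, 129 with array weights, 32 with the adipocyte and 116 with the lymph node marker level as a covariate, 45 when tumors with lymph node genes were left out, 21 when tumors with muscle genes were, and 5 to 83 when 1 array was left out. Against CON-LFD it was 143 without the dimmest genes, 13 with only both groups fitted, 159 with array weights, 4 with the adipocyte covariate and 0 to 155 when 1 array was left out. Leaving out tumors by tissue genes and the leukocyte covariate were chosen after seeing the data. The causes were not tested.

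Adgre1 turned negative with median centring (−0.026), array weights (−0.0068), the adipocyte (−0.11) and leukocyte (−0.28) covariates and without the lymph node (−0.048) and muscle (−0.040) tumors, and ran from −0.058 to 0.16 when 1 array was left out. Ifng (−0.0084) and Lep (−0.35) turned with the leukocyte covariate and Lep (−0.95) with the adipocyte covariate. With the adipocyte covariate list medians moved to −0.063 for adipocyte markers (whose own mean is the covariate, so this was built in), −1.84 for B and plasma cells, −0.61 for carcinoma cells, −0.083 for complement, −0.18 for dendritic cells, −0.42 for endothelium, −0.15 for keratins and junctions, −0.39 for FOXO targets, −1.44 for lymph node tissue, 0.80 for skeletal muscle and −0.27 for T cells, and that of macrophages turned to −0.036. Without the dimmest genes they were 3.85 for major urinary proteins and 0.85 for mast cells, basophils and eosinophils. In the fit with the adipocyte covariate, DIO-VSG 1 was high both in adipocyte markers (2.82 above the median array) and in B and plasma cell genes (6.03 above it). How far this tumor moved those medians was not tested. No paired analysis was possible because the labels give no replicate numbers that groups share. No detection call per probe set was used here, so dim genes are limited only by the filter above.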
